A study of Homo sapiens with 21 samples.

Results

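The members of this set are 10 genes that carry the TGF-beta signal from ligand to response: the ligands TGFB1 and TGFB2, the receptors TGFBR1, TGFBR2 and TGFBR3, the transducers SMAD2, SMAD3 and SMAD4, the inhibitor SMAD7 and the response gene TGFBI. They were chosen by name, and every probe set that the HG-U133 Plus 2.0 platform annotation gives to 1 of these symbols was followed, which made 31 of the 54675 probe sets on the array. A gene is represented by the probe set whose mean over the 21 arrays is highest, and levels of different probe sets are not compared. Of these 31, 25 lay above the median of their own array on at least 3 of the 21 arrays and were tested, and 6 did not: 2 of TGFB2, 2 of SMAD4, 1 of TGFBR1 and 1 of SMAD2. A tested probe set could pass through a single bright group, so counts over the 25 do not speak for the other 6. Expression was measured in HEY cells, an established human ovarian cancer line, on 3 arrays in each of 7 groups. Untransfected cells were taken at 0 h, and cells transfected by Lipofectamine 2000 with mir-429 or with a negative control micro-RNA, which the sample labels call synthetic mirna, were taken at 24, 48 and 144 h. The sample titles of both the mir-429 and the control arrays open with nc, so these letters do not tell the arms apart. All 6 transfected groups carry both the lipid reagent and an RNA, and all are 1 cell line. The labels number the arrays of a group as biological replicates without saying what was kept separate, and a p-value here weighs a difference only against the spread between such arrays, which may be technical.

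TGF-beta ligands are secreted in latent form and, once released, bind the type II receptor TGFBR2, which activates the type I receptor TGFBR1. TGFBR3, or betaglycan, is a co-receptor that presents TGF-beta2 in particular. The active type I receptor phosphorylates SMAD2 and SMAD3, which enter the nucleus with SMAD4 and switch genes on or off. SMAD7 is itself induced by the pathway and shuts the receptors down, and TGFBI encodes a secreted matrix protein named for its induction by TGF-beta. The miR-200 family, to which miR-429 belongs, is known for repressing ZEB1 and ZEB2, factors that act with TGF-beta in epithelial to mesenchymal transition.

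The transfected microRNA and its family are shown here because the seed, bases 2 to 8 in capitals, is the part that pairs with target messages. The sequences are RefSeq mature forms on GRCh38.p14, plus strand, 5′ to 3′. The labels do not give the sequence of the transfected molecule itself.
hsa-miR-429 at chr1:1169055-1169076: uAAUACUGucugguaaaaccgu
hsa-miR-200b-3p at chr1:1167160-1167181: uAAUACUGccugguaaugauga
hsa-miR-200c-3p at chr12:6963742-6963764: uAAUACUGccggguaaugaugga
hsa-miR-200a-3p at chr1:1167916-1167937: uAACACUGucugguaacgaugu
hsa-miR-141-3p at chr12:6964155-6964176: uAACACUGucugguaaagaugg
miR-429 shares its seed with miR-200b-3p and miR-200c-3p. The seeds of miR-200a-3p and miR-141-3p differ from it by U4C, counted from 1 at the 5′ end of the mature sequence.

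The values are deposited log2 expression levels made by RMA, and array medians lay between 3.95 and 4.29. KRT7, KRT8, KRT18, VIM, FN1 and CDH2 lay above the array median on 21 of 21 arrays, and KRT19 on 2. Of the epithelial markers CDH1 and EPCAM lay above it on 0 arrays and ESRP1, a splicing regulator of epithelial cells, on 21, with means of 5.72, 5.23 and 6.37 in control and 6.65, 8.16 and 7.26 in mir-429 cells at the 3 times. Of the leukocyte markers PTPRC, CD3E and ITGAM were above it on 0 arrays and CD14 on 1. Of 5 endothelial markers CDH5 was above it on 21 arrays, KDR on 19, PECAM1 on 3, TEK on 2 and VWF on 1. The mean level of the 5 was 4.56 to 4.80 over the control arrays and 4.30 to 4.55 over the mir-429 arrays at 24 h. It was 4.69 to 4.96 and 4.21 to 4.62 at 48 h, and 4.97 to 5.03 and 4.66 to 5.21 at 144 h. CDH5 averaged 9.41 in control and 10.2 in mir-429 cells at 144 h. The mean level of the 4 cytokeratins was 7.94 to 8.46 and 8.84 to 8.94 at 48 h, and 9.09 to 9.27 and 9.57 to 9.62 at 144 h. The part of these markers in the results was not tested. ZEB1, a known target of the family, fell with mir-429 by 1.29 at 24 h and by 1.72 at 48 h on the log2 scale (adjusted p = 1.92e-05 and 4.74e-07) and differed by -0.14 at 144 h (adjusted p = 0.717). ZEB2, the other, differed by -0.43 at 24 h (adjusted p = 0.123) and -0.33 at 144 h (adjusted p = 0.39) and fell by 1.12 at 48 h (adjusted p = 0.000446). The array carries probe sets at both ends of control transcripts, and the signal at the 3′ end minus that at the 5′ end of GAPDH and ACTB, a measure of RNA integrity and of labelling, moved with the groups. Its mean was 3.15 in untransfected cells, 4.21, 7.83 and 3.90 in control cells at 24, 48 and 144 h, and 2.87, 8.55 and 3.35 in mir-429 cells. The mir-429 and control arrays did not overlap in it at 24 h (two-sided exact permutation p = 0.1, the smallest that 3 against 3 arrays allow), and both groups at 48 h stood far above the rest. For this reason the fit was repeated with this difference as a covariate, and calls of mir-429 against control that this ended are named. The covariate was fitted beside the 7 group means, so its slope comes only from the spread within groups. Where groups do not overlap in it, the adjustment reaches beyond the arrays. A call can end there because the change shrank or because its SE grew. Whether RNA integrity accounts for any call was not tested.

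Of the 25 tested probe sets, 10 differed between mir-429 and control cells at 24 h, 6 higher and 4 lower (limma, adjusted p under 0.05 over all 30519 probe sets tested). That is 40.0% of them, against 18.3% of all probe sets tested (10.6% higher, 7.7% lower). At 48 h 9 differed, 2 higher and 7 lower, or 36.0% against 15.3% (7.03% higher, 8.29% lower). The 7 include SMAD3 205396_at, which was tested only because the control arrays of that time were bright in it. At 144 h 3 differed, all lower, or 12% against 4.29% (0.872% higher, 3.42% lower), with 0 higher also at an unadjusted p under 0.05. These counts take probe sets of 1 gene separately. By representative probe set 6, 4 and 2 of the 10 genes were called at 24, 48 and 144 h, against 22.8%, 17.5% and 4.54% of all genes. In these 4 were higher and 2 lower at 24 h, 1 and 3 at 48 h, and 0 and 2 at 144 h. The median log2 change of the 25 probe sets was -0.09, -0.28 and -0.10 at the 3 times, against -0.02, 0.0 and -0.05 over all probe sets tested. TGFB2, TGFBR1, TGFBR2 and SMAD7 held the members with a higher call at 24 h beside 1 probe set of SMAD4, and TGFBR3, SMAD2 and TGFBI those with a lower one. With the covariate the count at 24 h was 4, or 16.0%, against 2.47% of all probe sets, and in a fit on only the arrays compared the count at 48 h was 2, or 8.0%, against 3.82%. Over all probe sets, 20.3% of the calls at 144 h were higher, 32.1% after quantile normalization and 39.0% after cyclic loess, while the members gave 0 higher and 3 lower under each. The spread was uneven, since over probe sets the difference between 2 untransfected arrays had an SD of 0.226 to 0.348 that between 2 control arrays at 48 h one of 0.468 to 0.563 and that between 2 control arrays at 24 h one of 0.273 to 0.614, and the SE given below pools all 7 groups. Without replicate 2 of control at 24 h, 25.2% of all probe sets and 12 member probe sets were called at that time. Without replicate 3 these were 9.84% and 7, and without replicate 1 of mir-429 10.4% and 7. Between 48 and 24 h the effect differed in 11.2% of all probe sets without that replicate 2, against 2.39% with it. In bulk RNA, fewer cells that express a gene and less RNA per cell cannot be told apart.

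**Figure D1:**
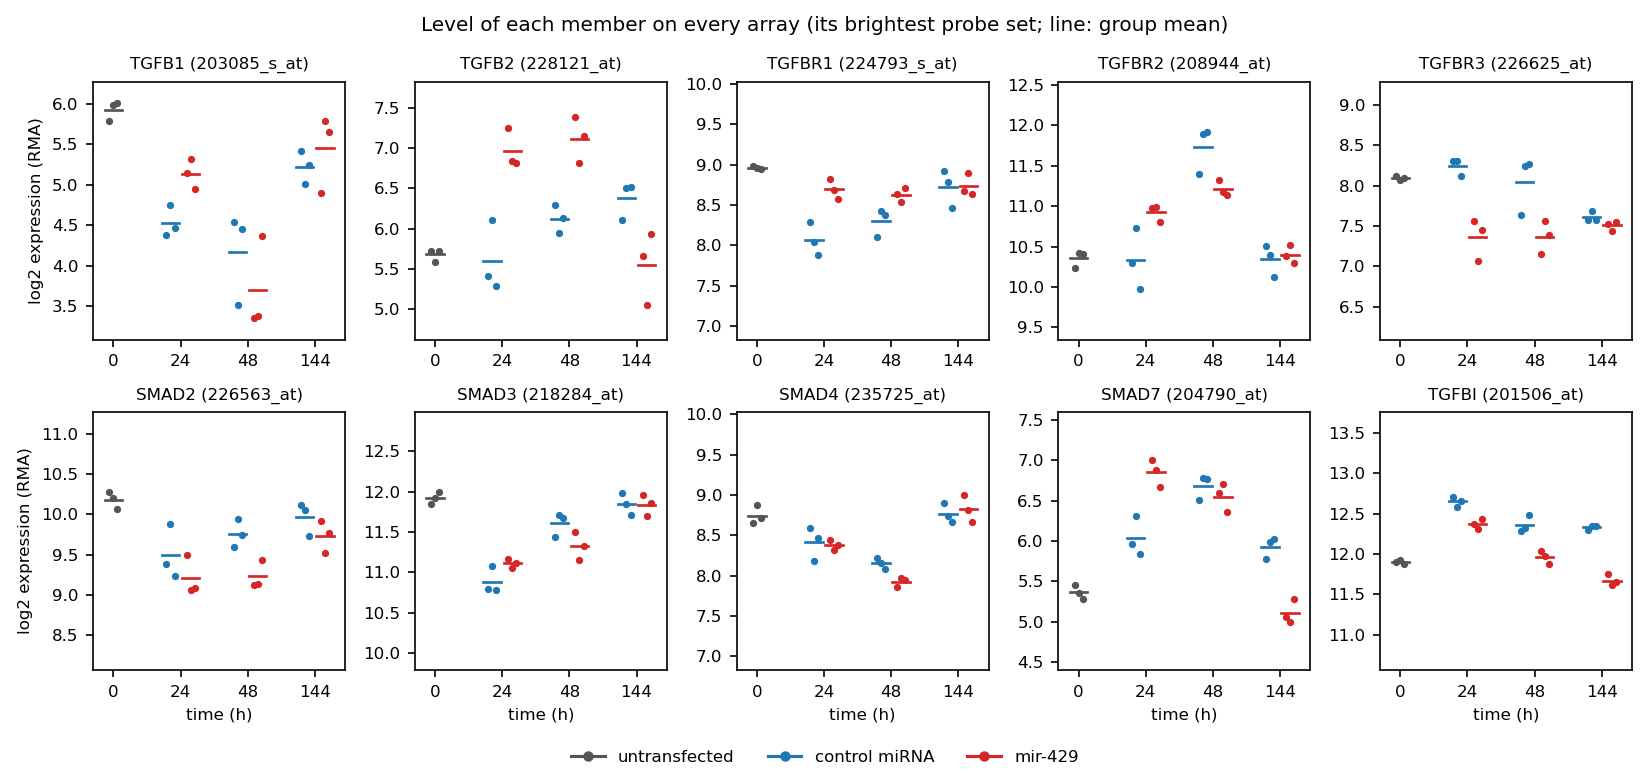
Log2 expression (RMA) of each of the 10 genes by time in hours, in its representative probe set; points are single arrays, short lines group means, grey untransfected, blue control miRNA and red mir-429, and each panel spans the same range of 3.2 log2 units. TGFB2 in mir-429 cells lies between 6.81 and 7.39 at 24 and 48 h and between 5.06 and 5.93 at 144 h, and SMAD7 falls from 6.67 to 7.0 at 24 h to 5.0 to 5.28 at 144 h.

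TGFB2, the ligand that depends most on the co-receptor TGFBR3, rose with mir-429 at 24 and 48 h, and the difference had turned by 144 h. In probe set 228121_at the 3 untransfected arrays read 5.73, 5.59 and 5.73 on the log2 scale. Control arrays read 5.41, 6.11 and 5.29 at 24 h, 6.30, 5.95 and 6.13 at 48 h, and 6.11, 6.50 and 6.52 at 144 h. The mir-429 arrays read 7.25, 6.84 and 6.82 at 24 h, 7.39, 6.81 and 7.15 at 48 h, and 5.66, 5.06 and 5.93 at 144 h. Every mir-429 array lay above every control array at 24 and 48 h, and every one below at 144 h. TGFB2 rose by 1.37 ± 0.231 at 24 h (SE, n = 3 per group, 2.58-fold, adjusted p = 0.000573) and by 0.99 ± 0.231 at 48 h (1.99-fold, adjusted p = 0.00674), and both calls held under all 10 and all 9 alternatives run and without any 1 array. At 144 h the difference was -0.83 (adjusted p = 0.0508), which missed the threshold. It passed under the stricter filter (adjusted p = 0.0438), with 1 probe set a gene (adjusted p = 0.0368) and for the mean of the probe sets (adjusted p = 0.00111). It also passed without replicate 3 of mir-429 at 144 h (adjusted p = 0.0279). In order of level the groups ran mir-429 at 144 h (5.55), control at 24 h (5.60), untransfected (5.68), control at 48 h (6.13), control at 144 h (6.38), mir-429 at 24 h (6.97) and mir-429 at 48 h (7.12). The lowest 3 overlap one another, as do the control groups at 48 and 144 h and the highest 2. Control at 24 h, with 1 array at 6.11, also overlaps control at 48 h and reaches the lowest control array at 144 h.

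A second TGFB2 probe set, 209909_s_at, had 4 of its 7 group means below the array median and changed in the same directions. It read 3.41, 3.74 and 3.73 in control cells and 4.96, 4.52 and 5.32 in mir-429 cells at 24 h. At 144 h it read 4.13, 4.06 and 4.25 in control cells and 2.55, 2.35 and 3.37 in mir-429 cells. The arms did not overlap at either time, and lay in opposite order. The rise at 24 h passed the test (adjusted p = 0.000366), and because the control mean lay below the array median its size is a bound, at least 0.67. The fall at 144 h passed it too (adjusted p = 0.00111), with both means below the array median and so with no size given. Both calls held under all 7 alternatives run and without any 1 array. At 48 h the change was 0.67 (adjusted p = 0.0367), a call that ended with the covariate (0.54, adjusted p = 0.163), with no filter (adjusted p = 0.0587) and without any 1 of the 6 arrays (adjusted p between 0.0554 and 0.0954). The third tested probe set, 220406_at, stayed between 3.80 and 5.21 on all arrays and passed no test of mir-429 against control, with differences of 0.14, -0.18 and -0.06. The remaining probe sets, 220407_s_at and 209908_s_at, were not tested. So the call for TGFB2 rests on 2 of its 5 probe sets.

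The mir-429 effect itself differed between times for TGFB2. In 228121_at it was lower at 144 h than at 24 h by 2.19 ± 0.326 (adjusted p = 0.000516) and differed from that at 48 h by -1.82 (adjusted p = 0.00226). In 209909_s_at both differences passed the test too, in the same direction (adjusted p = 4.7e-05 and 0.000413), and no size is given since they draw on groups below the array median. All 4 held under every alternative run and without any 1 array. The promoter of TGFB2 is printed because this gene and SMAD7, described further on, both rose at 24 h and both lost that rise by 144 h. These are the 250 bases before the RefSeq start, GRCh38.p14, plus strand, with CAGAC, the SMAD box, in capitals.
TGFB2 promoter at chr1:218345086-218345335: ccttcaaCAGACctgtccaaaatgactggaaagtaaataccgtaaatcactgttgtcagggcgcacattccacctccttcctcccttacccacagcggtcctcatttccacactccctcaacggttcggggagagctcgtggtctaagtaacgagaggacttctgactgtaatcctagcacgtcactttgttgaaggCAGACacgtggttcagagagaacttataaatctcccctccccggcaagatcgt
It holds 2 matches to CAGAC, searched on both strands, as do 38.0% of 35116 RefSeq promoters of this length with at least 1. The palindrome GTCTAGAC (in 0.182% of promoters), the ZEB box CACCTG (17.5%) and the AP-1 site TGANTCA (6.57%) were not found in it. Over the 25 listed starts of the members, 9 starts of 4 genes hold CAGAC. A match describes the letters and not a bound site.

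TGFB1, the most widely expressed ligand, passed no test of mir-429 against control. Its probe set 203085_s_at read 5.79, 5.99 and 6.01 in untransfected cells. It read 4.38, 4.75 and 4.46 in control cells and 5.15, 5.32 and 4.95 in mir-429 cells at 24 h, so the arms did not overlap there. The difference was 0.61 ± 0.288 (adjusted p = 0.158), and with the 48 h arrays left out of the fit the same 0.61 passed (adjusted p = 0.0438). At 48 h both means lay below the array median, and at 144 h the difference was 0.23 (adjusted p = 0.782). Against untransfected cells TGFB1 fell in control cells by 1.40 at 24 h (adjusted p = 0.00158), and by at least 1.54 at 48 h (bound, adjusted p = 7.52e-05). The call at 24 h ended for the mean of its probe sets (adjusted p = 0.0578) and the call at 48 h with the covariate (adjusted p = 0.529). Probe set 203084_at lay above the array median on 3 arrays and passed no test.

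Among the receptors, the signalling receptors TGFBR1 and TGFBR2 were higher with mir-429 at 24 h and the co-receptor TGFBR3 was lower. TGFBR3 probe set 226625_at read 8.31, 8.31 and 8.12 in control cells and 7.56, 7.07 and 7.45 in mir-429 cells at 24 h. At 48 h it read 7.64, 8.24 and 8.27 in control cells and 7.15, 7.56 and 7.39 in mir-429 cells. At 144 h control arrays read 7.57, 7.68 and 7.57 and mir-429 arrays 7.53, 7.44 and 7.55. The arms were apart at all 3 times, narrowly at 48 and 144 h. TGFBR3 fell by 0.88 ± 0.157 at 24 h (1.85-fold, adjusted p = 0.000885), a call that held under all 10 alternatives and without any 1 array. It fell by 0.68 at 48 h (adjusted p = 0.00619), a call lost in the fit on only the groups compared (adjusted p = 0.138) and for the mean of its probe sets (adjusted p = 0.129). At 144 h the difference was -0.10 (adjusted p = 0.831). The other probe set, 204731_at, differed by -0.94 ± 0.435 at 24 h (adjusted p = 0.15), and by -1.55 without control 24 h replicate 2 (adjusted p = 0.00568).

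TGFBR1, the type I kinase, read 8.29, 8.04 and 7.88 in control cells and 8.82, 8.69 and 8.58 in mir-429 cells at 24 h in probe set 224793_s_at. Its untransfected arrays read 8.98, 8.96 and 8.94, above all 6. Control cells had fallen from the untransfected level by 0.89 at 24 h (adjusted p = 0.000157, kept under every alternative and without any 1 array) and by 0.66 at 48 h (adjusted p = 0.000625, but 0.30 with the covariate, adjusted p = 0.797). mir-429 cells were above control cells by 0.62 ± 0.136 at 24 h (1.54-fold, adjusted p = 0.00416). This call ended with the covariate (0.35, adjusted p = 0.411) and for the mean of its probe sets (0.27, adjusted p = 0.34). At 48 and 144 h the differences were 0.33 (adjusted p = 0.121) and 0.01 (adjusted p = 0.988), and with the covariate that at 48 h passed (0.48, adjusted p = 0.0419). Probe set 236561_at passed no test of mir-429 against control.

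TGFBR2, the type II receptor that binds the ligand first, rose in control cells at 48 h, and its mir-429 differences were small and fragile. Probe set 208944_at read 10.23, 10.42 and 10.41 in untransfected cells and 11.40, 11.89 and 11.92 in control cells at 48 h, a rise of 1.38 ± 0.171 (2.60-fold, adjusted p = 4.81e-06) that held under every alternative and without any 1 array. With mir-429 it read 10.98, 10.99 and 10.81 against 10.29, 10.73 and 9.97 in control cells at 24 h, and 11.32, 11.17 and 11.14 against 11.40, 11.89 and 11.92 at 48 h. So mir-429 arrays lay above the control arrays at 24 h and below them at 48 h. The changes were 0.59 ± 0.171 (adjusted p = 0.022) and -0.52 ± 0.171 (adjusted p = 0.0464), and 0.05 at 144 h (adjusted p = 0.931). With the covariate these were 0.16 (adjusted p = 0.79) and -0.29 (adjusted p = 0.301). Both calls also ended in the fit on only the groups compared (adjusted p = 0.102 and 0.171) and for the mean of its probe sets (adjusted p = 0.783 and 0.456), and that at 48 h with no filter (adjusted p = 0.0785). The call at 24 h ended when replicate 1 or 3 of the control arrays or replicate 1 or 2 of the mir-429 arrays was left out (adjusted p between 0.0616 and 0.143), and that at 48 h when replicate 2 or 3 of the control arrays or any 1 mir-429 array was (adjusted p between 0.0613 and 0.145). Probe set 207334_s_at, between 3.71 and 5.89 on all arrays, passed no test.

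Of the receptor-activated SMADs, SMAD2 was lower with mir-429 at 24 and 48 h in part of its probe sets and SMAD3 passed in 1 dim probe set. SMAD2 probe set 203076_s_at read 8.97, 9.01 and 9.17 in control cells and 8.49, 8.60 and 8.59 in mir-429 cells at 24 h. It read 8.61, 8.94 and 8.80 against 8.31, 8.18 and 8.09 at 48 h, and 9.08, 8.91 and 8.81 against 9.04, 9.0 and 8.97 at 144 h. The arms were apart at the first 2 times and overlapped at the last. SMAD2 fell there by 0.49 ± 0.104 at 24 h (1.41-fold, adjusted p = 0.00337), which held under all 8 alternatives and without any 1 array, and by 0.59 at 48 h (adjusted p = 0.000821), which was lost in the fit on only the groups compared (adjusted p = 0.0839). At 144 h the difference was 0.07 (adjusted p = 0.81).

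Probe set 203077_s_at of SMAD2 fell by 0.54 at 24 h (adjusted p = 0.0115) and by 0.49 at 48 h (adjusted p = 0.0227). The first call ended with the covariate (adjusted p = 0.311), in the fit on only the groups compared (adjusted p = 0.0503) and with replicate 1 of the control arrays left out (adjusted p = 0.0618). The second ended in the fit on only the groups compared (adjusted p = 0.214) and when replicate 1 or 3 of the control arrays or replicate 1 of the mir-429 arrays was left out (adjusted p between 0.0531 and 0.122). Probe set 235598_at fell by 0.82 at 48 h (adjusted p = 0.0049), a call lost in the fit on only the groups compared (adjusted p = 0.0961). The representative probe set, 226563_at, differed by -0.28, -0.52 and -0.23 at the 3 times (adjusted p = 0.293, 0.0508 and 0.572), and 203075_at by -0.14, -0.31 and -0.29, with no call. The difference of 226563_at at 48 h passed under quantile normalization, cyclic loess, the stricter filter and 1 probe set a gene (adjusted p between 0.0356 and 0.0455). For the mean of the SMAD2 probe sets limma called 24 and 48 h (adjusted p = 0.0188 and 0.000562). All 5 tested SMAD2 probe sets thus had a negative difference at 24 and at 48 h, and 2 and 3 of them passed in the main fit.

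SMAD3 fell in control cells at 24 h, while mir-429 and control cells were not told apart by its representative probe set. In 218284_at the untransfected arrays read 11.85, 11.92 and 12 and the control arrays 10.80, 11.08 and 10.78 at 24 h, a fall of 1.03 ± 0.122 (2.05-fold, adjusted p = 1.42e-05) kept under every alternative and without any 1 array. The mir-429 arrays at 24 h, at 11.17, 11.05 and 11.12, overlapped the control arrays. mir-429 against control gave 0.23, -0.28 and -0.01 at the 3 times (adjusted p = 0.222, 0.141 and 0.976). For the mean of the SMAD3 probe sets, which takes in the dim 205396_at, the difference at 48 h passed (-0.40, adjusted p = 0.00843). Probe set 205396_at lay below the array median outside 48 h. It read 4.29, 4.53 and 4.27 in control cells and 4.25, 3.08 and 3.06 in mir-429 cells at 48 h, and fell by at least 0.18 (bound, adjusted p = 0.0212). It was above the array median on 4 arrays, 3 of control and 1 of mir-429 at 48 h. So it passed the filter through the very control group it is compared with. A lower value with mir-429 was thereby favoured in advance, and the fall is no support of its own. That call ended with the covariate (adjusted p = 0.0872), in the fit on only the groups compared (adjusted p = 0.188) and when replicate 2 of the control arrays or replicate 2 or 3 of the mir-429 arrays was left out (adjusted p between 0.0651 and 0.106). Probe sets 205398_s_at and 205397_x_at passed no test of mir-429 against control.

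SMAD4, the partner that both activated SMADs share, passed in 1 of 3 tested probe sets and at 24 h. In 202527_s_at control arrays read 6.51, 6.65 and 6.17 and mir-429 arrays 7.65, 7.25 and 7.08 at 24 h, with no overlap, a rise of 0.88 ± 0.247 (1.85-fold, adjusted p = 0.0187). The untransfected arrays read 7.19, 7.45 and 7.38, among the mir-429 values. The call ended with the covariate (0.49, adjusted p = 0.568), when replicate 3 of the control arrays was left out (adjusted p = 0.0997) and when replicate 1 of the mir-429 arrays was (adjusted p = 0.102). The representative SMAD4 probe set, 235725_at, differed by -0.03, -0.23 and 0.05 at the 3 times (adjusted p = 0.897, 0.216 and 0.889), and 202526_at by 0.32, 0.10 and -0.55, with no call.

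SMAD7, the inhibitor induced by the pathway it blocks, was higher with mir-429 at 24 h, level at 48 h and lower at 144 h. Its single probe set, 204790_at, read 5.45, 5.36 and 5.28 in untransfected cells. Control arrays read 5.96, 6.31 and 5.84 at 24 h, 6.51, 6.78 and 6.77 at 48 h, and 5.78, 5.99 and 6.02 at 144 h. The mir-429 arrays read 7.0, 6.88 and 6.67 at 24 h, 6.59, 6.70 and 6.36 at 48 h, and 5.06, 5.0 and 5.28 at 144 h. Every mir-429 array was above the control arrays at 24 h and below them at 144 h, and the arms overlapped at 48 h. SMAD7 rose by 0.82 ± 0.139 at 24 h (1.76-fold, adjusted p = 0.000622), a call that ended with the covariate (0.73, adjusted p = 0.0846) and under no other alternative run. It fell by 0.82 ± 0.139 at 144 h (1.76-fold, adjusted p = 0.00259), a call that held under all 10 alternatives and without any 1 array. At 48 h the difference was -0.14 (adjusted p = 0.585).

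In control cells SMAD7 had risen over untransfected cells by 0.68 at 24 h (adjusted p = 0.00155), kept under every alternative, and by 1.32 at 48 h (adjusted p = 9.21e-07), lost with the covariate (1.61, adjusted p = 0.157). At 144 h the difference was 0.57 (adjusted p = 0.11). Group means ran from 5.11 in mir-429 cells at 144 h through 5.36 in untransfected cells, 5.93 and 6.04 in control cells at 144 and 24 h, 6.55 in mir-429 and 6.69 in control cells at 48 h, to 6.85 in mir-429 cells at 24 h. The neighbours at 5.93 and 6.04 and the top 3 overlap one another. The mir-429 effect was lower at 144 h than at 24 h by 1.63 ± 0.196 (adjusted p = 9.73e-05), which held under all 10 alternatives and without any 1 of the 12 arrays. The promoter of SMAD7 is shown for the most upstream of its 3 RefSeq starts, printed as the transcribed strand reads (minus strand of GRCh38.p14), with CAGAC in capitals.
SMAD7 promoter at chr18:48950966-48951215: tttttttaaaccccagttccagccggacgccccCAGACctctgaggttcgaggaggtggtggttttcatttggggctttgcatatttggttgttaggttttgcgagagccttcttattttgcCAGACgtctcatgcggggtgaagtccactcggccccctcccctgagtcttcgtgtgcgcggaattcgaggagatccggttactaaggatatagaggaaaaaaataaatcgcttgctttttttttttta
It holds 2 matches to CAGAC and none to the other 3 motifs. Of its other starts 1 holds 1 CAGAC, and the other holds none but has a CACCTG. The promoter of TGFBI holds none of the 4 motifs.

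TGFBI, the matrix protein named for its response to the ligand, was lower with mir-429 at all 3 times. Probe set 201506_at read 11.90, 11.92 and 11.88 in untransfected cells. In control cells it read 12.71, 12.58 and 12.66 at 24 h, 12.28, 12.32 and 12.48 at 48 h, and 12.30, 12.35 and 12.35 at 144 h. With mir-429 it read 12.37, 12.31 and 12.43 at 24 h, 12.04, 11.97 and 11.88 at 48 h, and 11.75, 11.61 and 11.65 at 144 h. Every mir-429 array lay below every control array of its time. TGFBI fell by 0.28 ± 0.0866 at 24 h (1.21-fold, adjusted p = 0.0326), by 0.40 at 48 h (1.32-fold, adjusted p = 0.00421) and by 0.66 at 144 h (1.58-fold, adjusted p = 0.000408). The call at 144 h held under all 10 alternatives and without any 1 array, and that at 48 h was lost in the fit on only the groups compared (adjusted p = 0.164). The call at 24 h was lost with the covariate (adjusted p = 0.236), with no filter (adjusted p = 0.125), in the fit on only the groups compared (adjusted p = 0.149) and when replicate 1 or 3 of the control arrays or replicate 1 or 2 of the mir-429 arrays was left out (adjusted p between 0.0868 and 0.111). The effect at 144 h minus that at 24 h was -0.38 (adjusted p = 0.0509), and it passed under the stricter filter (adjusted p = 0.0397). In control cells TGFBI had risen by 0.75 at 24 h (adjusted p = 1.22e-05, kept under every alternative) and by 0.46 at 48 h (adjusted p = 0.000271, but 0.353 with the covariate).

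**Figure D2:**
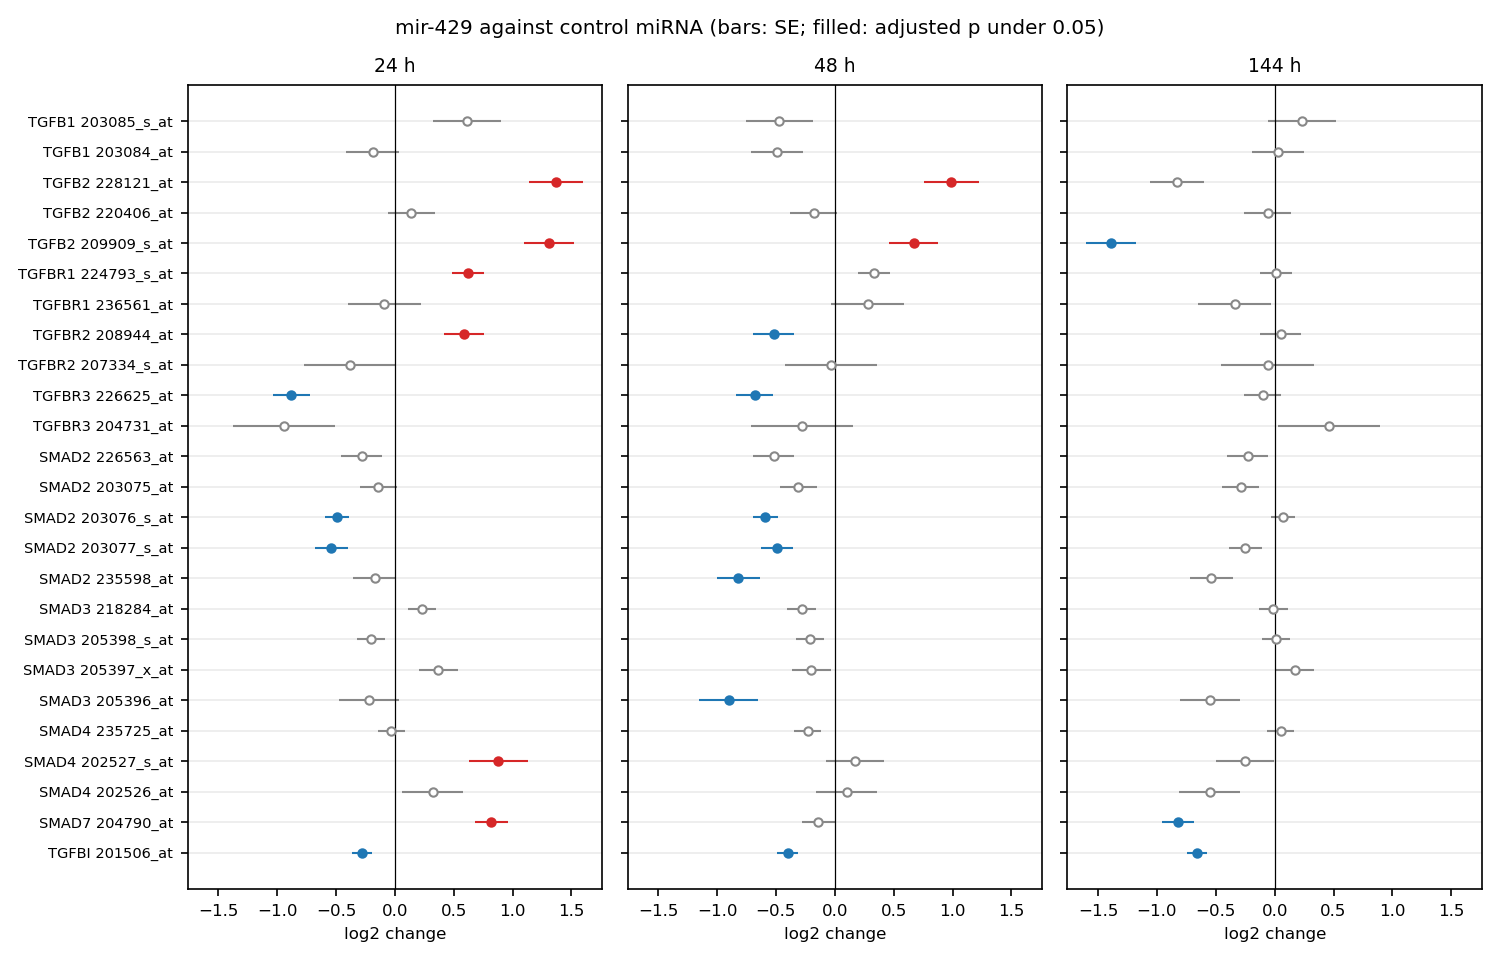
Log2 change of mir-429 against control at 24, 48 and 144 h for the 25 tested probe sets; points are fitted changes, bars SE, filled points adjusted p under 0.05, red higher and blue lower. TGFB2 228121_at lies at 1.37, 0.99 and -0.83, SMAD7 at 0.82, -0.14 and -0.82, and TGFBI below 0 in all 3 panels.

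Control cells were also compared with untransfected cells, on the same control arrays that serve above, and here the transfection and the time in culture cannot be told apart. Control cells differed from untransfected cells in 11 of 25 probe sets at 24 h (3 higher, 8 lower), or 44.0% against 29.9% of all probe sets tested (13.4% higher, 16.4% lower). At 48 h 16 differed (9 higher, 7 lower), or 64.0% against 52.6% (20.9% higher, 31.7% lower), and at 144 h 2 were higher, or 8.0% against 0.236% (0.134% higher, 0.102% lower). The 9 higher at 48 h include SMAD3 205396_at, which passed the filter through those control arrays, so its rise was favoured in advance. TGFB1, TGFBR1, SMAD2, SMAD3 and SMAD4 held the lower calls at 24 h, and SMAD7, TGFBI and the dim TGFB2 209909_s_at the higher ones. At 48 h SMAD2 had probe sets called in both directions, with 226563_at at -0.42 (adjusted p = 0.0488) and 235598_at at 0.61 (adjusted p = 0.00917). SMAD4 did too, with 235725_at at -0.59 (adjusted p = 0.000428) and 202527_s_at at 0.60 (adjusted p = 0.049). With the covariate 5 member probe sets were called at 24 h and 0 at 144 h, against 10.8% and 0.0393% of all probe sets, and the 1 call at 48 h, against 0.573%, was TGFBR2. Without untransfected replicate 2 the count at 24 h was 7, or 28.0% against 21.7% of all probe sets. Without any 1 of the 6 arrays compared the count at 144 h was 0, against 0.0393% to 0.108%. The 2 calls at 144 h were TGFBI at 0.43 (adjusted p = 0.046) and TGFB2 209909_s_at, whose means both lay below the array median. Cyclic loess moved the median of all probe sets from -0.12 to -0.01 at 48 h, and the members then gave 10 higher and 4 lower calls, or 56.0% against 51.9% of all.

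**Figure D3:**
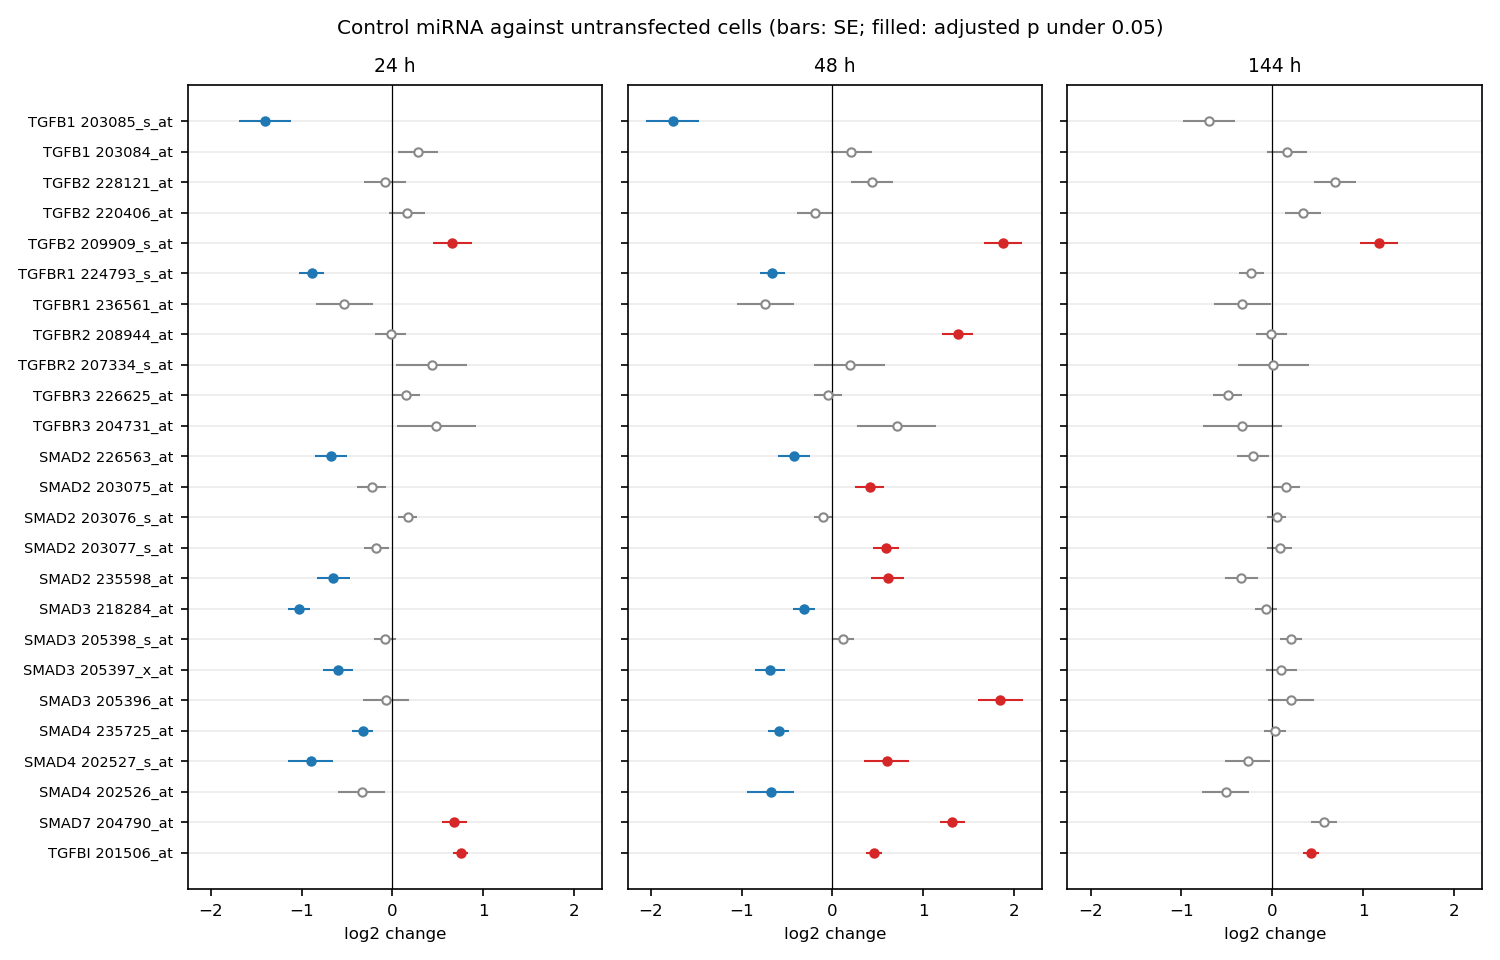
Log2 change of control miRNA against untransfected cells at 24, 48 and 144 h for the same 25 probe sets, drawn as fitted change with SE bars and filled where adjusted p is under 0.05. SMAD7 lies at 0.68, 1.32 and 0.57, TGFBR2 208944_at at -0.02, 1.38 and -0.01, and TGFB1 203085_s_at at -1.40 at 24 h. The TGFB1 point at 48 h has a group below the array median, so its size is not read.

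The mir-429 effect differed between 144 and 24 h in 7 of 25 probe sets (2 higher, 5 lower), or 28.0% against 11.6% of all probe sets (3.39% higher, 8.25% lower). Between 144 and 48 h it differed in 4 (1 higher, 3 lower), or 16.0% against 6.77% (2.45% higher, 4.33% lower), and between 48 and 24 h in 2, both lower, or 8.0% against 2.39% (0.796% higher, 1.59% lower). TGFBR2 and SMAD7 were the members whose effect was lower at 48 h than at 24 h, by 1.12 (adjusted p = 0.0257) and by 0.95 (adjusted p = 0.0204). Neither held with the covariate (adjusted p = 0.724 and 0.522), with no filter (adjusted p = 0.0547 and 0.0505) or in the fit on only the groups compared (adjusted p = 0.149 and 0.137). In these fits 0.00328%, 0.416% and 0.0655% of all probe sets were called, so few calls of any kind were made there. The TGFBR2 call also ended for the mean of its probe sets. Over the alternatives and the fits with 1 array left out, the difference ran from -1.32 to -0.38 for TGFBR2. For SMAD7 it ran from -1.09 to -0.83. With the covariate the difference between 144 and 24 h of TGFBR1 and SMAD4 202527_s_at also ended (adjusted p = 0.198 and 0.174), as did that between 144 and 48 h of SMAD7 and SMAD2 203076_s_at (adjusted p = 0.0984 in both). For TGFBR2 the call ended with replicate 1 or 3 of control at 24 h, replicate 2 of control at 48 h, replicate 1 or 2 of mir-429 at 24 h or replicate 3 of mir-429 at 48 h left out (adjusted p between 0.0544 and 0.0773). For SMAD7 it ended with replicate 3 of control (adjusted p = 0.0692) or replicate 1 of mir-429 (adjusted p = 0.0681) at 24 h left out. Of all 13 calls, the 4 of TGFB2 and that of SMAD7 between 144 and 24 h were kept under every alternative and without any 1 array. The count between 144 and 24 h was 4 with replicate 3 of control at 24 h, any 1 control array at 144 h, replicate 1 or 2 of mir-429 at 24 h or replicate 1 of mir-429 at 144 h left out. In these fits it made 16.0%, against 6.57% to 10.1% of all probe sets.

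Other genes of the pathway were counted in 4 lists with 1 probe set a gene, against 22.8%, 17.5% and 4.54% of all genes called at 24, 48 and 144 h. Of 20 tested genes for other ligands and their handling, 1 was higher and 4 lower at 24 h, 3 and 2 at 48 h, and 1 and 2 at 144 h. THBS1, a matrix protein that releases TGF-beta from its latent form, rose by 1.06 ± 0.13 at 24 h and 1.01 at 48 h and fell by 1.35 at 144 h (adjusted p = 3.07e-05, 3.75e-05 and 1.83e-05). GREM1, a secreted BMP antagonist, fell by 0.60 and 0.95 at 24 and 48 h (adjusted p = 0.000474 and 4.21e-06), and BMP2, a BMP ligand, fell by 0.36 and 0.52 (adjusted p = 0.0319 and 0.00369). GDF15, a distant member of the ligand family, fell by 0.68 at 24 h (adjusted p = 0.00642) and rose by 0.62 and 0.82 at 48 and 144 h (adjusted p = 0.0122 and 0.00611). LTBP2, of the latent binding protein family, fell by 0.50 at 144 h (adjusted p = 0.0301). The list median was 0.07, 0.01 and -0.09, against -0.02, -0.01 and -0.04 over all genes.

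Of 8 tested other receptors, 3 were higher and 1 lower at 24 h, 2 and 2 at 48 h, and limma called 0 at 144 h (0 higher and 2 lower at an unadjusted p under 0.05), with list medians of 0.17, -0.03 and -0.07. BMPR2, the BMP type II receptor, rose by 0.76 and 0.56 at 24 and 48 h (adjusted p = 0.000229 and 0.00271), and ACVR2A, an activin type II receptor, rose by 0.97 and 0.42 (adjusted p = 0.000114 and 0.0425). ACVR1B, an activin type I receptor, fell by 0.70 and 0.62 (adjusted p = 0.00392 and 0.0093), and ACVR2B fell by 0.62 at 48 h (adjusted p = 0.00256). Of 27 other SMADs and signalling regulators, 8 were higher and 2 lower at 24 h, 1 and 2 at 48 h, and 0 and 1 at 144 h (1 higher at an unadjusted p under 0.05), with medians of 0.08, 0.01 and -0.06. PMEPA1, an inhibitor of the pathway that the pathway induces, rose by 1.01 ± 0.119 at 24 and at 48 h (adjusted p = 2.32e-05 and 1.59e-05). SKIL, the SnoN co-repressor of SMADs, rose by 0.98 at 24 h (adjusted p = 0.000326), while TRIM33, a SMAD4 partner and ubiquitin ligase, fell by 0.67 (adjusted p = 0.00166). ZFYVE9, which brings SMAD2 to the receptor, and BAMBI, a decoy receptor, each fell by 0.42 at 48 h (adjusted p = 0.0495 and 0.0303), and the coactivator CREBBP fell by 0.46 at 144 h (adjusted p = 0.0473).

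Of 26 tested response genes, which include PMEPA1 and SKIL again, 5 were higher and 6 lower at 24 h, 4 and 9 at 48 h, and 3 and 3 at 144 h, with medians of 0.16, -0.19 and -0.10. FN1, the fibronectin gene and also 1 of the mesenchymal markers, fell by 1.70 and 2.66 at 24 and 48 h (adjusted p = 1.11e-07 and 4.29e-10). The cell cycle inhibitor CDKN1A rose by 0.70 and 0.60 at 48 and 144 h (adjusted p = 0.00115 and 0.0122). CCN2, a matricellular growth factor, rose by 0.77, 0.56 and 0.88 at the 3 times (adjusted p = 0.00182, 0.0161 and 0.0025). BHLHE40, a transcription factor, fell by 0.55 at 48 h (adjusted p = 0.0141) and rose by 0.79 at 144 h (adjusted p = 0.00436). IGFBP3, a binding protein of insulin-like growth factors, rose by 0.71 at 48 h (adjusted p = 0.0213) and fell by 1.05 at 144 h (adjusted p = 0.00553). Called response genes therefore lay on both sides of 0 at each time. Of the calls of the genes named here, 5 of 12 at 24 h, 10 of 16 at 48 h and 7 of 8 at 144 h were kept with the covariate. Those kept at 24 h were THBS1, GREM1, ACVR2A, PMEPA1 and FN1. Those ended at 24 h were GDF15, BMP2, ACVR1B, BMPR2, SKIL, TRIM33 and CCN2 (adjusted p between 0.0515 and 0.409). Those ended at 48 h were BHLHE40, ZFYVE9, IGFBP3, ACVR1B, ACVR2A and GDF15, and at 144 h LTBP2 (adjusted p = 0.102).

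**Figure D4:**
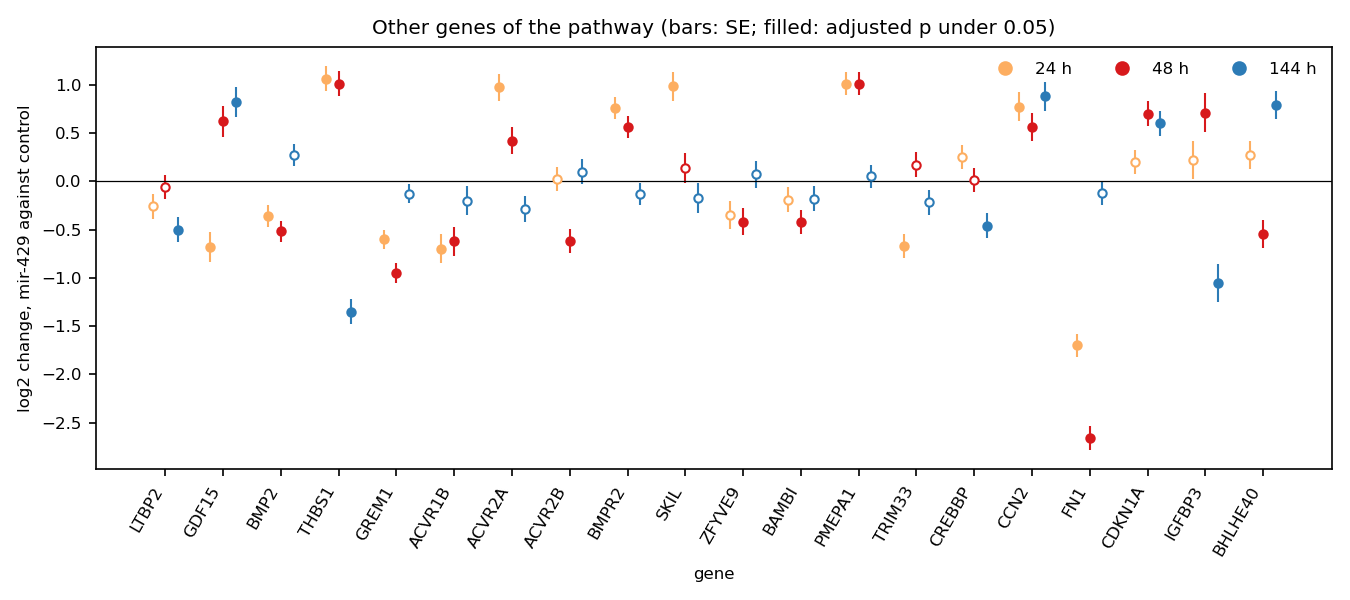
Log2 change of mir-429 against control for the named genes of the 4 other lists at 24 h (orange), 48 h (red) and 144 h (blue), with SE bars and filled points where adjusted p is under 0.05. FN1 reaches -2.66 at 48 h, and THBS1 lies at 1.06 and 1.01 before -1.35 at 144 h.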

How the data were processed

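Gene expression was measured on 21 Affymetrix HG-U133 Plus 2.0 arrays, 3 in each of 7 groups. Per the labels' protocols, total RNA was amplified from its 3′ end (Applause 3'-Amp) and given a biotin label. The deposited values are log2 expression levels per probe set from RMA, which the authors ran, per the submitters' processing notes, in a version not given in the sources used here. RMA scales all arrays together, so a value depends on the whole set. GEO's platform annotation gave 1 symbol to 41097 probe sets, several to 1801 and none to 11777, and symbols were updated through Entrez identifiers (99.9% matched) with RefSeq's GRCh38.p14 table. With arrays there is no depth of reads, and precision is limited by how many there were.

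Probe sets above the median of their own array on at least 3 arrays were tested (30519, with 62 control probe sets left out). A model of 7 group means was fitted by lmFit and eBayes of limma 3.58.1 (R 4.3.3), which left 14 residual degrees of freedom to which 3.47 were added as a prior. P-values were two-sided, were adjusted by Benjamini-Hochberg over all probe sets tested and had to lie under 0.05. The 9 contrasts were mir-429 against control and control against untransfected cells, each at 3 times, and the 3 differences of the mir-429 effect between times. Where 1 group mean lay below the array medians, each array of that group below its own median was raised to it and the change is a bound. On data simulated for the 24 h comparison over 30519 probe sets, 20.9% of 67 changes of 0.5, 58.2% of 67 of 1 and 95.5% of 66 of 2 on the log2 scale were found, with 5 false among 121 calls, and 0 calls without any change. Far fewer probe sets changed there than the 18.3% called at 24 h in the data. Each probe set also had the same spread in all groups. So these rates check that the procedure runs and are not the rates in the data. Exact permutation tests and figures used Python 3.11.15 with scipy 1.17.1.

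Alternatives were quantile normalization, cyclic loess, no filter, a filter of at least 12 arrays, 1 probe set a gene, the mean of a gene's probe sets, a replicate block, the 3′ minus 5′ signal as a covariate, leaving the 48 h arrays out, only the groups compared, and each array left out in turn. The labels do not say whether replicate numbers pair the arrays, and the groups were fitted unpaired. Of 9 pairs, 3 correlated above 0.1 (r between -0.159 and 0.374), which does not settle it. All members are described. Of each pathway list the up to 3 genes with the smallest p in each mir-429 comparison are named where they passed, and for each member called by its representative probe set in mir-429 against control the 3 genes most alike over the group means. Members, lists and tests were chosen with earlier results of these data known. Mature microRNAs (all 5 matched) and promoters (all 10 genes matched) were taken from RefSeq.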

Additional observations from a re-analysis of the deposited data

Results flagged for a closer look

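Each of these results is a mir-429 effect on a member that differed between 2 times by limma's test of the difference itself, on the log2 scale. Between 144 and 24 h the effect was lower by 144 h for TGFB2 in 228121_at (-2.19, adjusted p = 0.000516) and in 209909_s_at (a fitted value of -2.70, adjusted p = 4.7e-05), and for SMAD7 (-1.63, adjusted p = 9.73e-05). All 3 held under every alternative and without any 1 of the 12 arrays. Between 144 and 48 h it was lower for the same TGFB2 probe sets, 228121_at (-1.82, adjusted p = 0.00226) and 209909_s_at (a fitted value of -2.06, adjusted p = 0.000413), which also held throughout. Of the groups behind the values of 209909_s_at, control at 24 and 144 h and mir-429 at 144 h had means below the array median, so these give a direction and no size.

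For SMAD7 the effect was lower at 144 h than at 48 h (-0.68, adjusted p = 0.0451), but this ended without 7 of the 12 arrays taken singly (adjusted p between 0.0809 and 0.107) and was lost under quantile normalization, cyclic loess, no filter, the replicate block, the covariate and only the groups compared (adjusted p between 0.0538 and 0.103). It was lower at 48 h than at 24 h (-0.95). TGFBR2 was lower at 48 h than at 24 h (-1.12), and the arrays on which this and the SMAD7 call rest are named in the text above.

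TGFBR1 had a lower effect at 144 h than at 24 h (-0.61, adjusted p = 0.0466), which ended without 9 of the 12 arrays taken singly (adjusted p between 0.0522 and 0.13). It was also lost under quantile normalization, cyclic loess, no filter, the replicate block, the covariate, only the groups compared and the mean of its probe sets (adjusted p between 0.0502 and 0.299). SMAD4 202527_s_at had a lower effect too (-1.13, adjusted p = 0.0432), lost without 9 of the 12 (adjusted p between 0.0561 and 0.123) and under quantile normalization, cyclic loess, no filter, the replicate block and the covariate (adjusted p between 0.0517 and 0.174). The effect on TGFBR3 was less negative at 144 h than at 24 h (0.78, adjusted p = 0.0296), which ended with no filter (adjusted p = 0.0672) and without 7 of the 12 arrays (adjusted p between 0.0504 and 0.0751). SMAD2 203076_s_at also moved up between 24 and 144 h (0.56, adjusted p = 0.0197), which ended with no filter (adjusted p = 0.0653) and with replicate 3 of control at 24 or 144 h or replicate 1 of mir-429 at 24 h left out (adjusted p between 0.0537 and 0.0582). Between 48 and 144 h its difference was 0.66 (adjusted p = 0.0105), which was lost with the covariate and in the fit on only the groups compared (adjusted p = 0.0984 and 0.0543).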

How the results depend on the processing

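Of 22 calls of mir-429 against control among the member probe sets, 8 were kept under every alternative that applied and without any 1 array, as were 5 of 29 calls of control against untransfected cells and 5 of 13 differences between times. With the 3′ minus 5′ covariate the counts of called probe sets were 4 (mir-429, 24 h), 5, 1 and 0 (control, 24, 48 and 144 h), 0 (48 minus 24 h) and 2 (144 minus 48 h), and by representative probe set 2 (of 6 genes, mir-429, 24 h), 1 (of 8, control, 48 h) and 0 (control 144 h, and 48 minus 24 h) and 1 (144 minus 48 h). Beside these probe set counts, 2.47%, 10.8%, 0.573%, 0.0393%, 0.00328% and 4.17% of all probe sets were called, in the same order. Using only the groups compared gave 2 (mir-429, 48 h; 1 of 4 genes), 1 (control, 144 h; 0 genes), 0 (48 minus 24 h; 0 genes) and 2 (144 minus 48 h; 1 of 2 genes). The shares of all probe sets there were 3.82%, 0.095%, 0.0655% and 4.3%. With no filter all 31 member probe sets were tested, and the counts were 1 (control, 144 h; 0 genes), 0 (48 minus 24 h; 0 genes), 3 (144 minus 24 h; 2 of 4 genes) and, in genes, 1 (144 minus 48 h). Of all probe sets 0.0824%, 0.416%, 3.88% and 2.47% were called there. In control against untransfected cells at 144 h, quantile normalization, cyclic loess, the stricter filter and leaving out the 48 h arrays each gave 1 of 2 probe sets, and the first 2 of these gave 0 of 1 gene, while the mean of the probe sets gave 2 genes at 144 h and 1 of 2 for 48 minus 24 h. In the first 4 of these settings 0.259%, 0.242%, 0.241% and 0.282% of all probe sets were called. The stricter filter left 22 member probe sets. Between 144 and 48 h quantile normalization and cyclic loess gave 1 of 2 genes, with 6.55% and 6.98% of all probe sets called. Leaving out 1 array gave 7 to 12, 6 to 8 and 3 to 4 probe sets for mir-429 at the 3 times (4 to 6, 3 to 5 and 2 to 3 genes), 7 to 11, 12 to 16 and 0 for control (6 to 7, 6 to 8 and 0 genes), and 0 to 3, 4 to 8 and 3 to 4 for the differences 48 minus 24, 144 minus 24 and 144 minus 48 h (0 to 3, 2 to 4 and 1 to 2 genes). The shares of all probe sets moved too, to 9.84% to 25.2%, 11.9% to 15.2% and 1.56% to 3.79% for mir-429. They were 19.8% to 33.5%, 45.2% to 51.2% and 0.0393% to 0.108% for control. For the differences they were 0.485% to 11.2%, 6.57% to 17.8% and 4.29% to 7.7%.

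With the replicate block the counts were 10, 9 and 3 for mir-429 against control, the same numbers as without it, and 11, 13 and 1 for control (0 of 1 gene at 144 h). For the differences they were 2, 5 and 3 (1 of 2 genes for 144 minus 48 h). Whether the replicate numbers pair the arrays is not settled. In 3 of 9 pairs a mir-429 array correlated best with the control array of its own number.

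Called values changed sign in control against untransfected cells at 48 h only, among the settings run: with the covariate TGFBR1 224793_s_at gave 0.30, SMAD3 218284_at 0.31, SMAD3 205397_x_at 0.16 and SMAD4 202526_at 1.03, and for the mean of the probe sets SMAD2 226563_at gave 0.22 and SMAD3 218284_at 0.24. Sign changes of values with no call in either setting are not counted. The cause was not tested. Signal near the array median limits TGFB2 209909_s_at, SMAD3 205396_at and TGFB1, whose sizes, where a group lay below it, are bounds, are not given or are named as fitted values.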

Other observations

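For the members called by their representative probe set in mir-429 against control, the genes most alike over the 7 group means are given as a description, with Pearson's r over 7 points that share control arrays and one normalization. For TGFB2 they were EDRF1 (0.982), ZFP91 (0.974) and PPM1H (0.954), and PPM1H averaged 6.19 in control and 7.04 in mir-429 cells at 24 h and 6.33 and 5.79 at 144 h. For SMAD7 they were RBM12 (0.985), SRR (0.983) and SMIM2 (0.981), and RBM12 averaged 10.35 in control and 10.63 in mir-429 cells at 24 h and 10.35 and 10.11 at 144 h. TGFBI was most like NVL (0.988), POLR1A (0.978) and PCOTH (0.972), and POLR1A averaged 9.37 and 8.76 at 24 h and 8.83 and 7.81 at 144 h. TGFBR1 was most like MOB1B (0.981), OSBPL3 (0.981) and BMPR2 (0.978), the last a receptor of the same superfamily. TGFBR2 was most like OCRL (0.992), PRPF18 (0.989) and MTPAP (0.988), and TGFBR3 most like NMD3 (0.96), DORIP1 (0.959) and PRKG1 (0.954).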
